A study of Mus musculus with 313 samples.

Results

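The interleukin-7 receptor α chain gene Il7r, the interleukin-2 receptor α chain gene Il2ra and the interleukin-2 receptor β chain gene Il2rb were followed in single lymphoid precursor cells of mouse fetal liver. These 3 genes were chosen by name as the subunits of common γ chain cytokine receptors read here, out of 100 assays on the panel, and all 3 were found. The gene of the common γ chain itself was not analysed here. The common γ chain is a signalling subunit that several cytokine receptors share and that works through the kinase JAK3. The α chain encoded by Il7r pairs with it to bind interleukin-7, a growth and survival factor of early lymphocytes and of innate lymphoid cells. The β chain encoded by Il2rb pairs with it to signal for interleukin-2 and interleukin-15, and the α chain encoded by Il2ra (CD25) raises the affinity for interleukin-2.

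All cells came from pooled livers of embryonic day 15 and carried no lineage marker but both IL7Rα protein and integrin α4β7 when sorted. Within this gate, LTi precursors (LTiP, precursors of the lymphoid tissue inducer cells that start lymph node formation) were the PLZF-negative CXCR5-positive cells. ILC precursors (ILCP, precursors of innate lymphoid cells) were the PLZF-positive cells, and α4β7+ lymphoid precursors (aLP) were the cells with neither protein. The first number in a cell's name, 2 or 3, was read as its sort. The cells used were 14 LTiP cells of sort 3, 62 and 90 ILCP cells of sorts 2 and 3, and 54 and 92 aLP cells of sorts 2 and 3, 312 in all. Cells of 1 group and 1 sort were taken as 1 pool, and the pool, not the cell, was the replicate. Nothing in the sources used here gives the mouse strain or the number of livers in a pool, and nothing says whether the 2 sorts used separate litters, so the p-values below measure only the spread between these pools.

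Each value is a Ct, the PCR cycle at which the fluorescence of an assay crosses a threshold, so that a lower Ct means more cDNA. A gene counted as present in a cell, or detected, where its Ct was below 24. Its level in a detecting cell was 24 minus the Ct, in cycles. Assays differ in efficiency, so levels are compared between cells for 1 gene and not between genes.

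The transcripts that mark the gates were checked first. Zbtb16, the gene of PLZF, was found in 50% of LTiP cells, in 93.5% and 96.7% of ILCP cells of sorts 2 and 3, and in 11 of 54 and 3 of 92 aLP cells. The Cxcr5 shares were 85.7% in LTiP, 38.7% and 45.6% in ILCP, and 25.9% and 7.61% in aLP. Itga4, the gene of the integrin α4 chain, was detected in 92.9% to 100% of the cells of every pool. Zbtb16 transcript was thus found in LTiP and aLP cells that had been sorted as PLZF-negative, and Cxcr5 transcript in aLP cells sorted as CXCR5-negative. The mean number of assays detected per cell was 33.6 in LTiP cells, 40.7 and 40.8 in the ILCP pools, and 32.2 and 28.2 in the aLP pools. This number moves with the group and is taken up again for the shares of the 3 receptor genes.

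Il7r was found in 71.4% of the LTiP pool (10 of 14), in 54.8% and 42.2% of ILCP cells of sorts 2 and 3 (34 of 62 and 38 of 90), and in 55.6% and 30.4% of the aLP pools (30 of 54 and 28 of 92). All cells had been sorted for IL7Rα protein, yet 140 of 312 (44.9%) had an Il7r Ct below 24. The ILCP and aLP pools overlapped, since the aLP pool of sort 2 lay above both ILCP pools and the aLP pool of sort 3 below them.

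Il2rb was found in 64.3% of the LTiP pool (9 of 14), in 46.8% and 45.6% of the ILCP pools of sorts 2 and 3 (29 of 62 and 41 of 90), and in 22.2% and 21.7% of the aLP pools (12 of 54 and 20 of 92). The 2 pools of each group lay close together, and the groups did not overlap, with the LTiP pool highest and the aLP pools lowest.

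Il2ra was the rarest of the 3 transcripts. It was detected in 0 of 14 LTiP cells, which allows a share of up to 21.4% (3 cells over the cells of the pool), in 12.9% and 10% of the ILCP pools (8 of 62 and 9 of 90), and in 1.85% and 0% of the aLP pools (1 of 54 and 0 of 92, the 0 allowing up to 3.3% by the same rule). Of the 18 cells with Il2ra in the whole table, 17 were ILCP. Such limits cover counting error only, and a cell below detection may still express the gene.

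**Figure D1:**
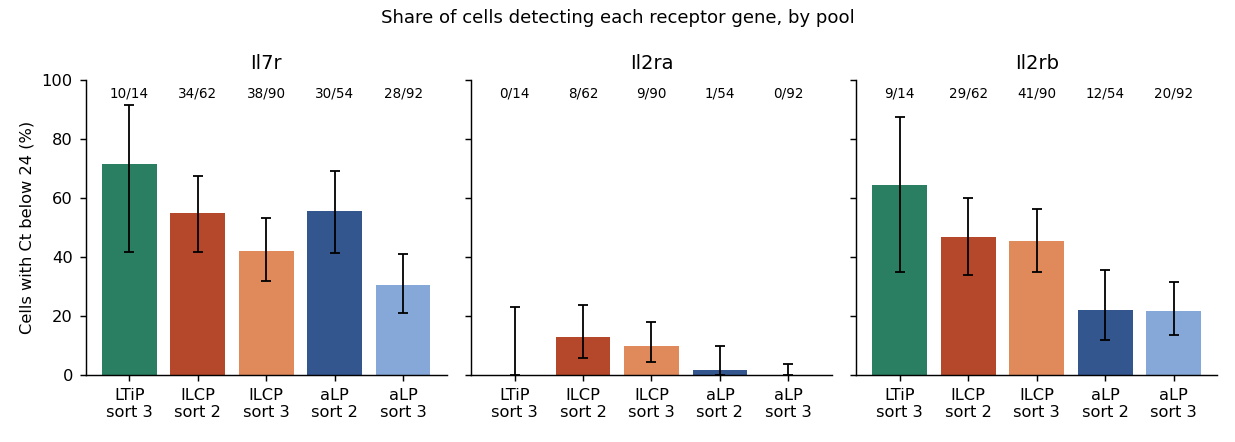
Percent of cells with a Ct below 24 (y axis) for Il7r, Il2ra and Il2rb in the 5 pools (x axis); bars give the share, whiskers the exact 95% Clopper-Pearson interval, and the fractions above the bars the detecting cells over all cells. The 2 pools of a group stand side by side for Il2rb (46.8% and 45.6% in ILCP, 22.2% and 21.7% in aLP), whereas the 2 aLP pools stand apart for Il7r (55.6% and 30.4%).

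The comparison of ILCP with aLP sets PLZF-positive cells against cells with neither PLZF nor CXCR5. It does not separate PLZF from CXCR5, and LTiP, the other PLZF-negative group, are set out further below. Over the 2 pools a group, the Il2rb share averaged 46.2% ± 0.86 (SD) for ILCP and 22% ± 0.34 for aLP. The difference was 24.2 ± 1.88 percentage points (SE moderated by limma over 91 assays), with 24.6 points in sort 2 and 23.8 points in sort 3, and limma with Benjamini-Hochberg adjustment gave an adjusted p of 0.0196. The Il2ra share averaged 11.5% ± 2.05 in ILCP and 0.926% ± 1.31 in aLP, a difference of 10.5 ± 2.29 points (11.1 and 10 in the sorts) that did not pass in limma (adjusted p = 0.0861). The Il7r share averaged 48.5% ± 8.92 in ILCP and 43% ± 17.8 in aLP. Its difference of 5.54 ± 11.7 points did not pass in limma (adjusted p = 0.733) and changed sign between the sorts, with -0.717 points in sort 2 and 11.8 points in sort 3. Of the 91 assays tested, 13 passed the threshold of 0.05 (14.3%), of which 11 were higher in ILCP (12.1%) and 2 lower (2.2%), so Il2rb was 1 call among 13.

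The Il2rb difference had a small spread between pools for its counting error. The SE of 1.88 points was below the 5.47 points that the numbers of cells alone give, and with the SE set to at least the counting error the limma adjusted p was 0.106. Leaving out any 1 of the 4 pools also lost the call, with differences of 23.6 to 24.8 points, limma adjusted p of 0.0679 to 0.152 and 0 of 91 assays passing. It was lost as well with the sort number as a block, with a limma adjusted p of 0.0901 and 0 of 91 assays passing. Both kinds of fit leave less to estimate the spread from than the main fit, a limit that applies to all 91 assays. Over all alternatives that kept the direction, the limma adjusted p ran from 0.0153 to 0.333.

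The number of other assays detected moved with Il2rb inside every ILCP and aLP pool. Among cells below their pool's median of other assays, Il2rb was found in 50% of LTiP cells, 28.6% and 27.3% of ILCP cells and 4.17% and 6.52% of aLP cells. Among cells at or above that median, the shares were 75% in LTiP, 61.8% and 63% in ILCP and 36.7% and 37% in aLP. Cells with more assays detected therefore held Il2rb more often in each ILCP and aLP pool, and ILCP cells had more assays detected. The LTiP shares ran the same way but rest on 6 cells below and 8 at or above the median, too few to show a trend. For Il7r the same split gave 50% and 87.5% in LTiP, 53.6% and 55.9% in ILCP of sort 2, 38.6% and 45.7% in ILCP of sort 3, 41.7% and 66.7% in aLP of sort 2, and 19.6% and 41.3% in aLP of sort 3 (below, then at or above the median). Il2ra ran the other way in ILCP of sort 2, with 17.9% and 8.82%, and was near level in ILCP of sort 3, with 9.09% and 10.9%.

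Cells were next compared at a like number of other assays. With 30 to 39 other assays detected, Il2rb was found in 66.7% of LTiP cells (6 of 9), 27.6% of ILCP cells (16 of 58) and 32.3% of aLP cells (21 of 65). With 40 or more, it was found in 60.7% of ILCP cells (54 of 89) and 54.5% of aLP cells (6 of 11), and 1 LTiP cell was left. With under 30, it was found in 0 of 5 ILCP and 5 of 70 aLP cells. These shares take both sorts together, and the sorts ran opposite ways. With 30 to 39 other assays, Il2rb was found in 30% of ILCP and 24.1% of aLP cells of sort 2. In sort 3 it was found in 26.3% and 38.9%. Of the 11 aLP cells with 40 or more, 10 were of sort 2. With cells split at 36.5 other assays, the median of all ILCP and aLP cells, and both parts weighted equally, the Il2rb difference was -0.967 points (limma, adjusted p = 1). That value rests on thinly filled parts: it was 9.27 points in sort 2 and -11.2 points in sort 3, where 5 aLP cells lay above the median and 4 of them had Il2rb. Below the median, where 3 of the 4 parts hold at least 20 cells, Il2rb was found in 8.33% of ILCP cells and 13.8% of aLP cells of sort 2 (12 and 29 cells), and in 23.8% and 18.4% of sort 3 (21 and 87 cells). The group and the number of assays detected cannot be told apart in these pools.

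Il2ra kept its direction under the same comparison. With 30 to 39 other assays it was found in 0 of 8 LTiP cells, 16.7% of ILCP cells (9 of 54) and 1.49% of aLP cells (1 of 67), and with 40 or more in 8.6% of ILCP cells (8 of 93) and 0 of 11 aLP cells. With both parts weighted equally the Il2ra share was 14.8 points higher in ILCP in sort 2 and 8.21 points higher in sort 3. Il7r was found in 44.8% of ILCP cells (26 of 58) and 49.2% of aLP cells (32 of 65) with 30 to 39 other assays, and in 50.6% (44 of 87) and 88.9% (8 of 9) with 40 or more. Of these 9 aLP cells, 8 were of sort 2 and 1 of sort 3, against 37 and 50 of the ILCP cells. The last comparison therefore mixes sort with group.

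**Figure D2:**
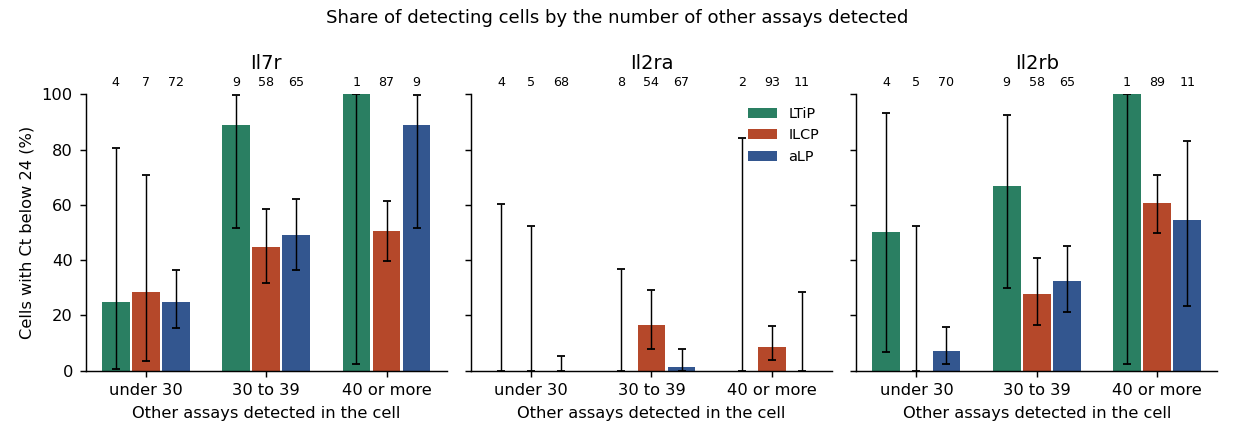
Percent of cells with a Ct below 24 (y axis) in cells with under 30, 30 to 39, and 40 or more other assays detected (x axis), for LTiP cells of sort 3 and for ILCP and aLP cells of both sorts together; whiskers are exact 95% Clopper-Pearson intervals over cells and the numbers above are cells. At 30 to 39 other assays Il2rb stands at 27.6% in ILCP and 32.3% in aLP, with overlapping intervals, and Il2ra at 16.7% and 1.49%.

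The amount of transcript in detecting cells was read separately from the share. For Il2rb the mean level was 3.84 cycles in LTiP (9 cells), 2.63 and 3.16 cycles in ILCP of sorts 2 and 3 (29 and 41 cells), and 2.08 and 3.2 cycles in aLP (12 and 20 cells). The ILCP and aLP pools overlapped, and the difference of 0.23 ± 0.47 cycles did not pass in limma (adjusted p = 0.931), with 0.55 cycles in sort 2 and -0.09 cycles in sort 3. For Il7r the mean level was 7.60 cycles in LTiP (10 cells), 6.71 and 5.52 cycles in ILCP (34 and 38 cells), and 6.81 and 5.34 cycles in aLP (30 and 28 cells). The Il7r difference of 0.04 ± 0.57 cycles did not pass in limma (adjusted p = 0.995). In this fit 0 of 55 assays passed (0%), and 10 had an unadjusted p under 0.05. Il2ra was detected in too few aLP cells for this fit; its mean level was 4.48 and 5.84 cycles in ILCP (8 and 9 cells) and 5.07 cycles in the 1 aLP cell.

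Averaged over all cells of a pool, with 0 cycles for a cell that did not detect the gene, Il2rb stood at 2.47 cycles in LTiP, 1.23 and 1.44 cycles in ILCP and 0.46 and 0.71 cycles in aLP. Its difference between ILCP and aLP was 0.75 ± 0.25 cycles, which did not pass in limma (adjusted p = 0.152). Il2ra differed by 0.53 ± 0.22 cycles (adjusted p = 0.202 in limma) and Il7r by 0.30 ± 0.94 cycles (adjusted p = 0.788 in limma). On this scale 6 of 91 assays passed (6.59%), none of them Il7r, Il2ra or Il2rb.

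Il2rb lay close to the detection limit. Of its Ct values 28 (20.1%) were at or above 24, the fourth highest share among 91 assays, and its median Ct was 21.7. Il7r had 6 such Ct values (4.11%) and a median Ct of 18, and Il2ra had none of 18, its Ct values running from 16.3 to 20.7. A limit of 28 cycles moved the Il2rb share to 78.6% in LTiP, 62.9% and 53.3% in ILCP and 33.3% and 22.8% in aLP. A limit of 20 cycles moved it to 21.4% in LTiP, 9.68% and 13.3% in ILCP and 0% and 8.70% in aLP. The order of the groups was the same at each of these limits, with the 2 sorts of ILCP in either order.

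**Figure D3:**
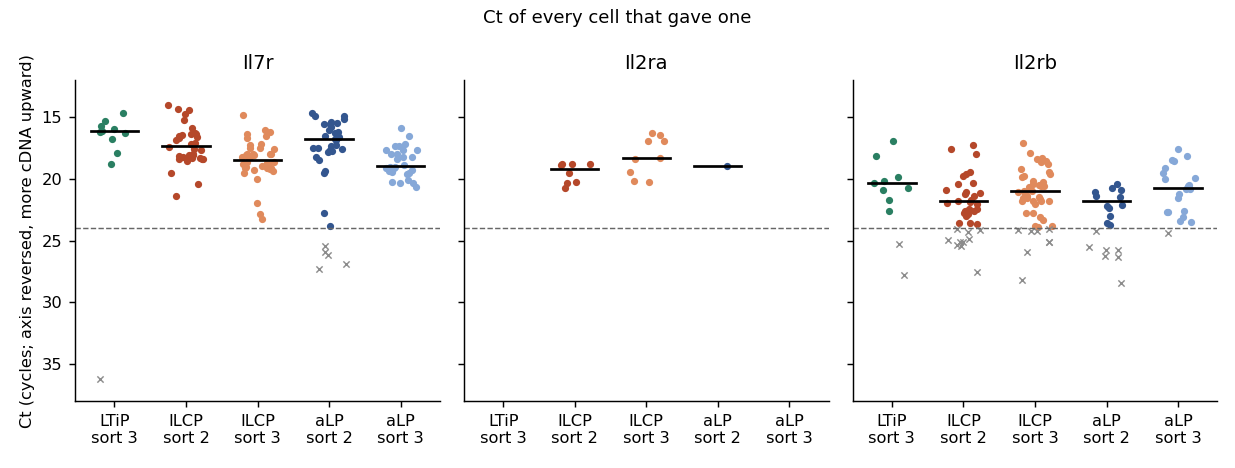
Ct of every cell that gave one (y axis, reversed so that more cDNA is higher), by pool (x axis), for the 3 receptor genes; coloured points are detecting cells, grey crosses are Ct values at or above the limit of 24 (dashed line), and black bars are medians of the detecting cells. Il2rb points run close to the limit in the ILCP and aLP pools, while all Il2ra points lie at 20.7 cycles or less.

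**Figure D4:**
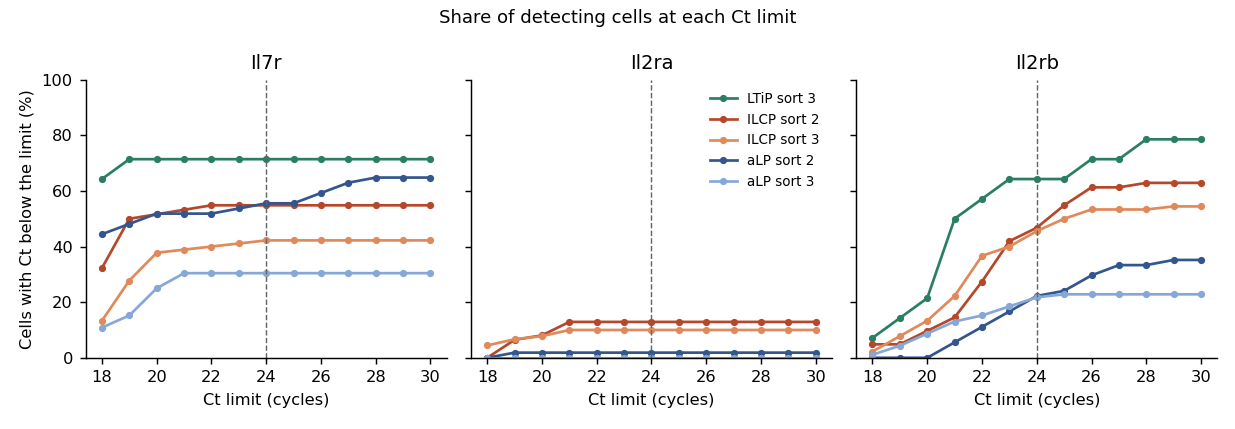
Percent of cells with a Ct below a limit (y axis) as the limit runs over the x axis in cycles, for each pool and receptor gene; the dashed line marks 24. The Il2ra curves are flat beyond 21 cycles, whereas each Il2rb curve is higher at 26 than at 24.

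Il7r differed between the sorts more than most assays did. Sort 3 minus sort 2 was -12.6 points in ILCP and -25.1 points in aLP, against a median over the 91 assays of -1.61 and -1.85 points, and Il7r ranked the 11th and the 8th lowest. In detecting cells its level differed by -1.19 cycles in ILCP and -1.46 cycles in aLP (sort 3 minus sort 2), the lowest and the second lowest value of 55 assays. The Il2rb share moved by -1.22 points in ILCP and -0.483 points in aLP between the sorts, close to the median, while its level in detecting cells was 0.53 and 1.17 cycles higher in sort 3. The cause of the shift in Il7r was not tested. The number in a cell's name also differed between the groups of sort 2, since all 54 aLP cells were numbered 97 or higher and 52 of the 62 ILCP cells 96 or lower.

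The Il2rb share was therefore set out by these numbers. In sort 3 it was 47.4%, 43.8% and 46.2% in ILCP cells of the first, the second and the third block of 96 numbers, and 12.5%, 31.4% and 18.2% in aLP cells of the same blocks. In sort 2 the 1 block with both groups, the second, gave 30% in ILCP (3 of 10 cells) and 22.2% in aLP (12 of 54 cells). ILCP lay above aLP in each of these 4 blocks, by fewer points in sort 2. With cells numbered 97 or higher alone, the difference was 13.9 points in limma and did not pass.

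LTiP cells formed 1 pool, so their differences within sort 3 are described without a test. The Il7r share was 41 points higher in LTiP than in aLP and 29.2 points higher than in ILCP. The Il2rb share was 42.5 points higher in LTiP than in aLP and 18.7 points higher than in ILCP. With 14 LTiP cells the counting error alone is wide: the exact 95% interval of the LTiP share was 41.9% to 91.6% for Il7r and 35.1% to 87.2% for Il2rb. These intervals are over the cells of 1 pool, cover counting error only and leave out the spread between LTiP pools. All 14 LTiP cells were numbered 1 to 96, and within that range of sort 3 Il2rb was found in 64.3% of LTiP, 47.4% of ILCP (9 of 19) and 12.5% of aLP cells (3 of 24), and Il7r in 71.4%, 47.4% and 37.5%.

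A limma fit over all 5 pools assumes that the single LTiP pool varies like the other groups, so its p-values do not rest on any spread measured among LTiP pools. In it the Il2rb share was 42.3 ± 2.24 points higher in LTiP than in aLP (adjusted p = 0.0163), when 15 of 93 assays passed (16.1%), 12 of them higher in LTiP (12.9%). The adjusted p was 0.486 in limma with the SE set to at least the counting error of 13.4 points, and no assay then passed. The call was also lost in limma without any 1 of the ILCP and aLP pools (adjusted p = 0.0801 to 0.105). The Il7r difference of 28.4 ± 14.3 points did not pass in limma (adjusted p = 0.340). Against ILCP, the LTiP share differed by 18.1 points for Il2rb, -11.5 points for Il2ra and 22.9 points for Il7r, and limma gave adjusted p values of 0.0560, 0.0973 and 0.324, when 5 of 93 assays passed (5.38%). Both contrasts use the same LTiP pool.

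Joint detection was counted in single cells. Cells with none of the 3 transcripts numbered 2 of 14 in LTiP, 12 of 62 and 29 of 90 in ILCP, and 21 of 54 and 49 of 92 in aLP. These counts were not compared at a like number of other assays. All 3 were found together in 0 LTiP cells, 2 and 3 ILCP cells and 1 and 0 aLP cells. Il7r and Il2rb, the chains for interleukin-7 and for interleukins 2 and 15, were found together in 50% of LTiP cells, 24.2% and 21.1% of ILCP cells and 16.7% and 5.43% of aLP cells. Summed over the pools this was 55 cells, against 52.4 cells from the product of the 2 shares in each pool, a ratio of 1.05, and 0.982 when the product was taken within cells below and above the median of other assays. The pools gave ratios of 1.09 in LTiP, 0.943 and 1.10 in ILCP and 1.35 and 0.821 in aLP. The 2 transcripts therefore fell in the same cells about as often as their shares alone give.

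Il2ra was found with Il7r in 12 cells, against 8.74 from the shares (ratio 1.37): 4 of the 8 Il2ra cells of ILCP sort 2, 7 of the 9 of ILCP sort 3 and the 1 aLP cell. The ratio was 0.912 in ILCP of sort 2 and 1.84 in ILCP of sort 3, so the sorts did not run the same way. Il2ra was found with Il2rb, the chain it joins in the high-affinity interleukin-2 receptor, in 9 cells against 8.06 (ratio 1.12). Both ratios rest on few cells. In cells with both transcripts, the Ct of Il7r and Il2rb had a Spearman correlation of 0.04 in LTiP (7 cells), 0.18 and 0.23 in ILCP (15 and 19 cells) and 0.05 in aLP of sort 2 (9 cells), where the cells of a pool share its preparation and vary in total cDNA.

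**Figure D5:**
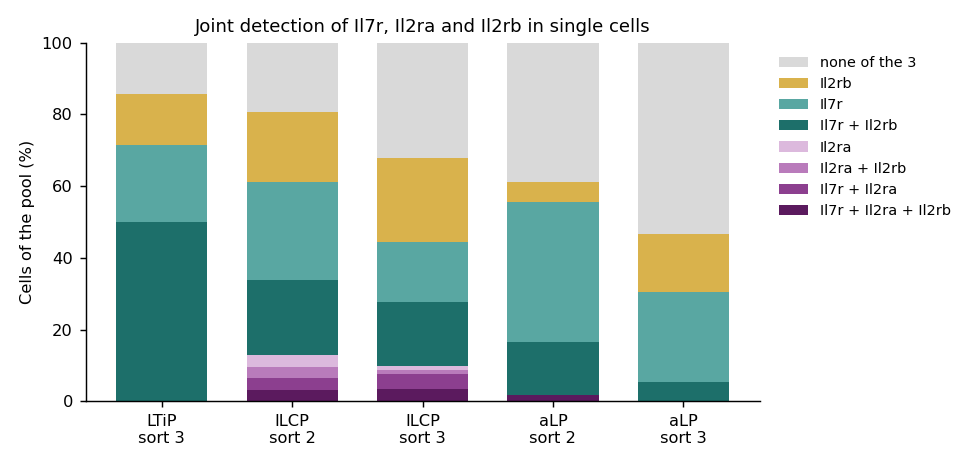
Percent of the cells of each pool (y axis) with each combination of Il7r, Il2ra and Il2rb detected; the colours of a bar add up to all cells of the pool on the x axis. Cells with none of the 3 (grey, top) make up 14.3% of LTiP, 19.4% and 32.2% of ILCP and 38.9% and 53.3% of aLP cells, and combinations with Il2ra (purple) are nearly all in ILCP.

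Other assays were ranked by how far their detection followed that of each receptor gene, as the mean phi coefficient (a correlation of detected with detected) over the 4 ILCP and aLP pools. It is a description over single cells, which share their preparation within a pool and differ in depth, and the median over 56 assays was 0.07 for Il2rb and 0.06 for Il7r. Il2rb went most with Tcf7, a transcription factor gene of early T cells and ILCs, at a mean phi of 0.37. Its phi with Tcf7 was 0.13 and 0.17 in ILCP of sorts 2 and 3 and 0.50 and 0.66 in aLP. Cxcr5 (0.35) and the interleukin-18 receptor gene Il18r1 (0.32) came next, and Tle1, a co-repressor gene (-0.16), had a negative phi in all 4 pools, as no other assay did among those that reached 5% of cells in each pool. Il7r went most with the transcription factor gene Ets1 (0.25), with Il18r1 (0.24) and with the transcription factor gene Foxo1 (0.21), and least with the transcription factor gene Irf8 (-0.13) and the tumour necrosis factor receptor gene Tnfrsf1a (-0.09). Il2ra had no detecting cell in aLP of sort 3 and was not ranked.

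Il2rb and its most alike assays were then counted together in each group. These assays were picked for their high phi in the same cells, so the choice itself favours joint counts above the shares. In aLP, 22 cells had both Il2rb and Tcf7, against 7.26 from the shares and 10.3 when the shares were taken within cells below and above the median of other assays. Tcf7 was found in 68.8% of the aLP cells with Il2rb and in 9.65% of those without. In ILCP, where Tcf7 was nearly everywhere, the shares were 97.1% and 90.2%. Cxcr5 was found in 43.8% of the aLP cells with Il2rb and 6.14% of those without, and Il18r1 in 40.6% and 5.26%. Transcripts of the gate genes moved with it: of the 22 aLP cells with Il2rb and Tcf7, 9 had Zbtb16, 13 had Cxcr5 and 7 had neither. Il2rb was detected in 16 (13.4%) of all aLP cells with neither gate transcript.

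Further pairs, also chosen after their values were seen, are given as counts. In ILCP, Il2rb was found in 22 of 34 cells with Tbx21 (15.7 from the shares), in 8 of 9 with Eomes (4.16) and in 4 of 4 with Ncr1 (1.86). These are genes of ILC1 and NK cells, and no LTiP cell had any of the 3. Taken within cells below and above the median of other assays, the shares gave 16.4 for Tbx21, 4.53 for Eomes and 2.35 for Ncr1 in ILCP. In aLP, 0 of 7 Tbx21 cells had Il2rb, where the shares gave only 1.52, too few to read as a difference from ILCP. The 17 ILCP cells with Il2ra held Bcl11b, a transcription factor gene of T cells and ILC2, in 10 cells (5.74 from the shares), and the retinoid X receptor gene Rxrg in 10 (6.30). They held Tbx21 in 1 (3.98), Cxcr5 in 4 (7.20) and Gata3, a transcription factor gene of ILC2 and T cells, in 4 (5.67). The other ILC2 genes counted lay above the shares, as Bcl11b and Rxrg did. Rora was found in 15 of these cells (13.04), Icos in 4 (2.02), Il1rl1 in 4 (1.92) and Il17rb in 4 (2.59). Gata3 was thus the only ILC2 gene counted that lay below, and these counts rest on few cells.

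The other genes on the panel give the setting of these differences. Over all 91 assays the median difference between ILCP and aLP was 8.69 points, and 71 of the 91 were above 0. With cells split at the median of other assays and both parts weighted equally, the median was 4.41 points and 62 were above 0. The list medians below were not computed in that way. Of the other common γ chain pathway genes listed, Bcl2, a survival gene that interleukin-7 sustains in lymphocytes, and Myc were on the panel, and neither passed: Bcl2 differed by 12.4 points (adjusted p = 0.559) and Myc by -5.15 points (adjusted p = 0.571), both in limma. The Bcl2 shares were 71.4% in LTiP, 43.5% and 62.2% in ILCP and 53.7% and 27.2% in aLP. Of the other cytokine receptor genes, 7 were tested, and 1 was higher in ILCP by limma, the interleukin-25 receptor gene Il17rb (15.3 points, adjusted p = 0.0332), with a list median of 7.35 points. That is 1 of 7, where 12.1% of all assays were called higher. Il18r1 differed by 32.4 points (adjusted p = 0.214 in limma), Tnfrsf1a by 18.6 points (adjusted p = 0.0956 in limma) and the interferon γ receptor gene Ifngr1 by -9.30 points (adjusted p = 0.293 in limma).

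The calls in all gene lists share the limit of the Il2rb call, since 0 of the 91 assays passed without any 1 pool or with the sort number as a block. The lists were also chosen with earlier results of these data known, so their counts are a description and not an independent test. Of 10 ILC2 genes tested, 6 were higher in ILCP and none lower, against 12.1% of all assays called higher, with a median of 30.9 points. Among the 6 were Rora (69.9 points, adjusted p = 0.0154 in limma), the chemokine receptor gene Ccr8 (47.9 points, 0.0295) and Rxrg (36.2 points, 0.0154). Of 6 ILC1 and NK genes none passed (median 17.1 points), nor did any of 8 LTi genes (median 8.89 points). Of 9 early lymphoid and T lineage genes 2 were higher, Tcf7 (68.3 points, adjusted p = 0.0263 in limma) and Bcl11b (33.9 points, 0.0154), with a median of 31 points. The lists overlap: Bcl11b is also among the 6 ILC2 calls, as is Il17rb of the cytokine receptor list. Of 5 markers of other lineages on the panel 3 were tested, and they did not run 1 way. Irf8, which acts in myeloid and B cells, was lower (-39.9 points, adjusted p = 0.0263 in limma). Bcl11a was lower without passing (-13.2 points, adjusted p = 0.143 in limma), which is also the list median. Itga2b was higher in ILCP without passing (27 points, adjusted p = 0.0719 in limma). The Il2rb difference of 24.2 points was thus smaller than the median of the ILC2 and the early lymphoid lists and larger than that of all assays.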

How the data were processed

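The table the authors deposited gives raw, non-normalized Ct values, per the file headers, from multiplex RT-PCR of single cells on a Biomark HD after 22 cycles of preamplification, per the labels' protocols. They are neither counts nor log values, and no source used here says how a missing Ct arose. The table holds 313 cells. A cell had to show 1 or more of 4 housekeeping assays (Actb, Gapdh, Hprt, Tbp) and 5 or more assays in all, and 1 aLP cell with 2 assays was dropped. Cells were not scaled. Groups came from the labels and the sort from the number in each cell's name, which no label defines.

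Shares and levels per pool were computed in Python 3.11.15 and pandas 2.3.3, with exact Clopper-Pearson 95% intervals from SciPy 1.17.1. Limma 3.58.1 in R 4.3.3 (lmFit, eBayes, group as the only term) was run over assays that reached 5% of cells in some pool, and for the level in detecting cells over assays with at least 5 detecting cells in each of 4 pools, adjusted by Benjamini-Hochberg with calls at 0.05. The fit was tested on simulated data. There the pools of a group differed by counting error alone, so that test does not bear on a wider spread between real pools. An exact permutation test of 2 pools against 2 cannot go below p = 0.333 and was not used. The counts expected of a pair are products of the shares within each pool, summed.

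The receptor genes and gene lists were chosen with earlier results of these data known. Named were the 3 receptor genes, for each the 3 assays with the highest and the 2 with the lowest mean phi among those reaching 5% of cells in each ILCP and aLP pool with 1 sign in all 4, up to 4 assays per list by size of difference, and gate and housekeeping genes. Alternatives varied the detection limit, cell and assay filters, number range, averaging, housekeeping scaling, weights, block and pools. The 3 names matched RefSeq symbols (GRCm38.p6), used for names only. Values of some assays are not reported here.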

Additional observations from a re-analysis of the deposited data

Results flagged for a closer look

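The difference between ILCP and aLP cells ran opposite ways in the 2 sorts for Il7r by each measure, and for Il2rb in detecting cells. Each sort gives 1 ILCP and 1 aLP pool, so the difference between the sorts was not tested. The Il7r share differed by -0.717 points in sort 2 and 11.8 points in sort 3. The Il7r level over all cells differed by -0.10 cycles in sort 2 and 0.70 cycles in sort 3, and in detecting cells by -0.10 cycles in sort 2 and 0.18 cycles in sort 3. The Il2rb level in detecting cells differed by 0.55 cycles in sort 2 and -0.085 cycles in sort 3. None of these 4 differences passed in limma over both sorts.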

How the results depend on the processing

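The Il2rb call on the share of cells, ILCP against aLP, was the least stable result, and the cause was not tested. It was kept under 6 alternatives, with differences of 21.5 to 24.4 points and limma adjusted p of 0.0153 to 0.0464, and lost under 12 with the same direction. It was kept with pools weighted by cells, no cell filter, cells with at least 20 assays, either other assay filter, and scaling to Actb, Gapdh and Hprt. The lost calls gave 18.9 points at a limit of 22 cycles, 31.1 at 26, 30.04 at 28 and 29.7 with any Ct. They gave 13.9 with cells numbered 97 or higher, 24.2 with the SE at least the counting error (an alternative chosen after seeing the data), 1.09 on the log odds scale and 23.6 to 24.8 without 1 pool. With cells weighted equally over the parts below and above the median of other assays it was -0.967 points for Il2rb and -9.50 points for Il7r. The Il2ra difference was 9.07 to 14 points in the alternatives where it did not pass and passed on the log odds scale (2.39). Without 1 pool the Il7r share difference ran from -7.03 to 18.1 points.

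The number of assays called on the share was 13, and it was 8 with the counting error, 4 with cells numbered 97 or higher, 8 with the parts weighted equally, 20 on the log odds scale, 0 without any 1 pool and 0 with the sort number as a block, against 9 to 13 elsewhere. On the level over all cells 6 were called, against 12 at a limit of 26 cycles, 11 at 28, 16 with any Ct, 11 with the assay filter at 20% of a pool, 15 on a linear scale and 0 to 20 without 1 pool. On the level in detecting cells 0 were called, against 2 at 26 cycles, 4 with any Ct and 1 with the parts weighted equally.

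The Il2rb level over all cells passed at 28 cycles (1.93 cycles) and with any Ct (5.79), and was -0.14 cycles with the parts weighted equally. The Il7r level over all cells was -0.069 cycles in cells with at least 20 assays, -0.76 with the parts weighted equally and -0.78 to 1.38 without 1 pool. In detecting cells Il7r was -0.052 cycles at a limit of 22, -0.18 in cells with at least 20 assays, -0.35 with the parts weighted equally, -0.061 after scaling to Actb, Gapdh and Hprt, and -0.69 to 0.77 without 1 pool. Il2rb in detecting cells was -0.30 with the parts weighted equally, -0.33 after scaling and -0.35 to 0.82 without 1 pool. In detecting cells neither gene passed in limma under any alternative.

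Against aLP, the LTiP share of Il2rb kept its direction and lost its call with the counting error (42.3 points, 0 assays called), at 28 cycles (50.5, with 7 called), with any Ct (49.6) and without 1 pool (42.1 to 42.5, with 0 called). Against ILCP, 5 assays were called, and 0 with the counting error or without 1 pool. The ratio of Il2ra with Il2rb was 0.714 at a limit of 22 cycles, 1.00 at 26, 0.984 at 28 and 0.972 with any Ct.

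Numbers 2 and 3 were used as a replicate block although they share only a number: same-numbered pools had deviations that correlated at -0.08 on the share, -0.05 on the level over all cells and 0.26 in detecting cells. With the replicate block the Il2rb share difference was 24.2 points (limma adjusted p = 0.0901) with 0 assays called, 2 were called on the level over all cells and 5 in detecting cells. The block gave 42.7 points for Il2rb and 0.263 points for Il2ra in LTiP against aLP, with 0 called there and 0 against ILCP. Precision is limited by 2 pools a group, by 14 LTiP cells and by 18 cells with Il2ra.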
